A study of Mus musculus with 6 samples.

Results

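The intermediate filaments of astrocytes and neurons were followed here through 8 genes, matched by symbol to the Ensembl identifiers of the 54752 genes in the count tables. The rule names the genes and sets no threshold on their values, although they were proposed with earlier results of these data known. Gfap, Vim, Nes and Synm form the astrocyte group and Nefl, Nefm, Nefh and Ina the neurofilament group. The RNA came from the whole right hippocampus of 6 wild-type male mice, C57BL/6 in the labels and C57BL/6 J in the study's methods, with 1 library per mouse. The labels give a time of 14 weeks, read here as the age of the mice. In the BCAS group (n = 3 mice) both common carotid arteries had been narrowed by wire microcoils, the tighter coil lying on the right side, and in the sham group (n = 3 mice) the arteries were exposed but carried no coil. All mice were taken 3 weeks after surgery. The comparison asks which transcripts differed after 3 weeks of reduced blood flow on the more severely narrowed side. On that side of BCAS mice the paper reported infarcts, hippocampal atrophy, loss of hippocampal neurons and activated microglia. Tissue damage and reduced flow cannot be told apart in the values below.

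Intermediate filaments are rope-like polymers that give a cell mechanical strength, and each cell type builds them from its own proteins. Astrocytes use mainly GFAP, and strong expression of GFAP and vimentin is the textbook mark of reactive astrocytes, the state that astrocytes enter after injury. Mature neurons fill their axons with neurofilaments, made of a light, a medium and a heavy chain together with alpha-internexin, and neurofilament content sets axon calibre. Nestin is best known from neural progenitors, and synemin does not form filaments alone but joins those of vimentin or desmin.

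Library totals ranged from 34301711 to 35607098 counts in sham and from 29652456 to 31892083 in BCAS mice, where the mates of a read pair were counted separately. Values are given as CPM, the usual count unit relative to library size, after TMM scaling, and 3 counts correspond to 0.0874 to 0.0993 CPM. The filter on low counts left 18617 genes for testing, and all 8 filament genes passed it at levels far above this floor in every mouse. To check the tissue, 3 genes were picked after the data were seen. Prox1, a marker of dentate granule neurons, was at 58.2 to 116 CPM and Zbtb20 at 122.1 to 232 CPM over all libraries. Within the groups both were lowest in sham mouse 3 (Prox1 73.8, Zbtb20 145.1 CPM) and BCAS mouse 2 (58.2 and 122.1 CPM). Ociad2, the third, was at 115.5 to 128 CPM in sham and 45.3 to 71.3 CPM in BCAS mice. In bulk tissue fewer cells of a type and less RNA per cell cannot be told apart.

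The filament genes lie on several chromosomes of the mouse genome (build mm10, positions as in the count tables). Gfap occupies chr11:102887336-102900912 on the minus strand and Vim chr2:13573927-13582826 on the plus strand. Nes lies at chr3:87971078-87980451 (plus) and Synm at chr7:67730160-67759742 (minus). Nefl at chr14:68083863-68089095 (plus) lies within the span annotated for Nefm, chr14:68082590-68124846 on the opposite strand, while Nefh is at chr11:4938754-4948064 (minus) and Ina at chr19:47014698-47025327 (plus). Exons of Nefl and Nefm share 1108 bases, which is 32.8% of the exonic bases of Nefl and 19.2% of those of Nefm, and reads falling there were assigned to neither gene. Ina likewise shares 456 exonic bases (14.1%) with Nt5c2 on the other strand. Synm shares 426 exonic bases (5.37%) with Gm45102 and 84 (1.06%) with Ttc23, also on the other strand.

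RefSeq promoters (GRCm38.p6) were found for 5 of the 8 genes, namely Gfap, Vim, Nes, Synm and Ina. The 250 bases before the RefSeq start are shown for 1 gene that rose (Gfap), 1 that was not called (Synm) and 1 that fell (Ina), so that the sequences can be compared beside their responses. Capitals mark matches, on either strand, to a STAT site (TTCNNNGAA), an NFI half-site (TTGGC), an AP-1 site (TGANTCA), a GC box (GGGCGG), the letters CCAAT or the letters TATAAA, the last of these known as a TATA box.
Gfap, chr11:102897201-102897450, minus strand: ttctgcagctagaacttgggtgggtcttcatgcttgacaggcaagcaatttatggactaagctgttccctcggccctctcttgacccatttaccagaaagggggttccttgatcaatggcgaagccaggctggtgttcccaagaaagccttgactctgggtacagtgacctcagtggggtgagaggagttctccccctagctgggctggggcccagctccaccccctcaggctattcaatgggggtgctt
Synm, chr7:67759743-67759992, minus strand: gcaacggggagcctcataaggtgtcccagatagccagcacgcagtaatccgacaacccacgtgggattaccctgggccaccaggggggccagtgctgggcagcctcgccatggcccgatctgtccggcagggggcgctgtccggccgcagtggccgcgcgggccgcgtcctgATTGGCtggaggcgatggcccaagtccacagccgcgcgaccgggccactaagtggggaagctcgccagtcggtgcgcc
Ina, chr19:47014431-47014680, plus strand: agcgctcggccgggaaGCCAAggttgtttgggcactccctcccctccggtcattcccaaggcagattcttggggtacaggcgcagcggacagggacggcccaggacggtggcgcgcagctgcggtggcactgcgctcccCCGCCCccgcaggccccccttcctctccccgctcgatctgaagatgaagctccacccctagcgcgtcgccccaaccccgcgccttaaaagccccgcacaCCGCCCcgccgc

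The Gfap window held none of these 6 motifs and had a GC content of 55.6%. The Synm window, with a GC content of 70.0%, held an NFI half-site at base -77 that overlaps a CCAAT box at -78, counted from the RefSeq start. The Ina window (70.8% GC) held an NFI half-site at -234 and GC boxes at -111 and -12. Of the genes not shown, Vim had NFI half-sites at -93 and -16, CCAAT boxes at -196 and -94 and a TATA box at -32, and Nes had GC boxes at -73 and -62. Such letters are common, since among 32851 mouse promoter windows of this length an NFI half-site occurred in 41.5%, a CCAAT box in 33.8%, a GC box in 32.7%, a TATA box in 12.4%, a STAT site in 7.02% and an AP-1 site in 6.75%. A match is a stretch of letters and not evidence of binding. Bases outside these windows were not searched, so a window without a match says nothing about sites farther away. The annotated span of Gfap, on the minus strand, reaches past its window.

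Among the 4 astrocyte filament genes, 3 rose in BCAS mice and 1 was not called, and all 4 neurofilament genes fell (edgeR quasi-likelihood test, adjusted P under 0.05). Of all tested genes, 18.0% were called higher and 13.2% lower by the same rule. With the additional requirement of an absolute log2 fold change above 1, which defines differentially expressed genes (DEGs) here, Gfap and Vim were DEGs and no neurofilament gene was, against 8.47% of tested genes that were DEGs higher and 0.999% that were DEGs lower. The count of 0 neurofilament DEGs stands beside 4 of 4 lower at an unadjusted P under 0.05 in edgeR, and 4 of 4 lower at an adjusted P under 0.05 in both DESeq2 and limma-voom, and no alternative made one of them a DEG. The sham and BCAS mice did not overlap for 3 filament genes that were higher and 4 that were lower, where 25.3% of tested genes were higher and 22.7% lower without overlap. The median log2 fold change was 1.77 for the astrocyte filament genes, -0.60 for the neurofilament genes and 0.018 for all tested genes.

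**Figure D1:**
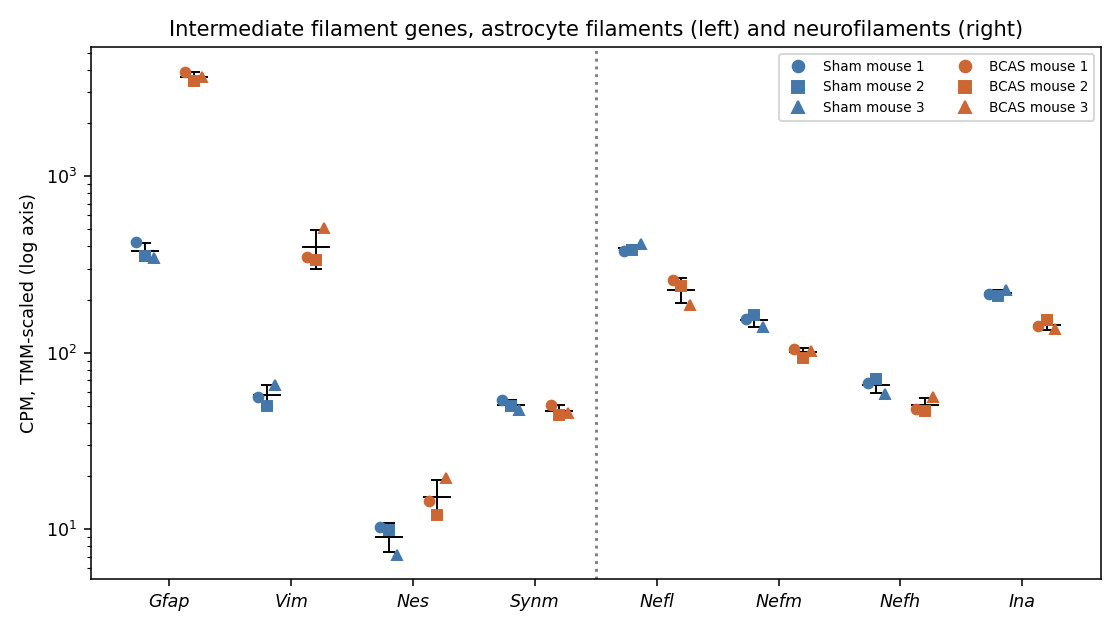
TMM-scaled CPM (log axis) of the 8 filament genes in each mouse, with sham in blue and BCAS in orange; horizontal bars are group means and error bars are SD (n = 3 mice per group). Gfap and Vim in BCAS mice lie several-fold above all sham mice, Nes lies slightly above, Synm overlaps, and the 4 neurofilament genes lie below.

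Gfap, which encodes the main filament protein of astrocytes, stood at 426.9, 352.6 and 345.8 CPM in sham mice 1 to 3 and at 3920, 3445 and 3657 CPM in BCAS mice 1 to 3. All BCAS mice were far above all sham mice, and the spread within each group was small beside the gap between them. Group means were 375.1 ± 45.0 CPM for sham and 3674 ± 238.1 CPM for BCAS (SD, n = 3 each), a 9.80-fold ratio. The log2 fold change was 3.29 (SE 0.15, edgeR adjusted P = 7.25e-06), larger than that of 98.5% of the tested genes. By mean CPM, Gfap moved from rank 373 of the 18617 tested genes in sham to rank 12 in BCAS mice.

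Vim, which encodes vimentin, the partner of GFAP in astrocyte filaments and also a filament protein of endothelial cells, fibroblasts, microglia and ependyma, stood at 56.0, 50.2 and 66.0 CPM in sham mice and at 348.5, 334.9 and 511.4 CPM in BCAS mice. The groups were well apart, and BCAS mouse 3 was the highest. The ratio of means was 6.94, and the log2 fold change was 2.79 (SE 0.18, edgeR adjusted P = 2.087e-05). In the same mice the summed level of 11 microglia and macrophage markers, none of them at the detection limit in every mouse, was 256.9 to 272.1 CPM in sham and 1537, 1666 and 2474 CPM in BCAS mice 1 to 3. All 11 of these markers were DEGs higher in BCAS mice, beside 8.47% of all tested genes, and their part in the Vim value was not tested. The summed level of 6 fibroblast markers was 89.1 to 187.8 CPM in sham and 195.0 to 355.1 CPM in BCAS mice, with 4 of 6 called higher, and that of 8 endothelial markers was 281.3 to 307.1 and 367.9 to 414.5 CPM, also with 4 called higher, beside 18.0% of all tested genes. Summed markers of ependyma and choroid plexus varied between mice of both groups, at 974.1, 4009 and 76.2 CPM in sham and 5816, 54.0 and 3154 CPM in BCAS mice 1 to 3, and their part in the Vim value was not tested.

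Nes, which encodes nestin, was the least abundant of the 8 genes by CPM and per kilobase, at 10.3, 9.90 and 7.14 CPM in sham and 14.4, 12.1 and 19.5 CPM in BCAS mice. The groups did not overlap, but the lowest BCAS mouse was close to the highest sham mouse. The mean rose 1.68-fold, with a log2 fold change of 0.75 (SE 0.21, edgeR adjusted P = 0.0232). The call was lost without sham mouse 3 (0.60, edgeR adjusted P = 0.0851) and without BCAS mouse 3 (0.53, edgeR adjusted P = 0.0745). Of 7 markers of progenitors and dividing cells, 4 were called higher and 1 lower, beside 18.0% and 13.2% of all tested genes, and their summed level was 58.6 to 62.5 CPM in sham and 80.0 to 83.4 CPM in BCAS mice. Of 7 pericyte and smooth muscle markers 3 were called higher, beside the same 18.0%. The part of these cells in the Nes value was not tested.

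Synm, which encodes synemin, was level between the groups within their spread. It stood at 54.1, 49.8 and 47.7 CPM in sham and at 50.9, 44.4 and 45.6 CPM in BCAS mice, and the groups overlapped. The log2 fold change was -0.11 (SE 0.09, edgeR adjusted P = 0.388) and ranged from -0.17 to -0.03 over 15 alternative settings, none of which gave a call. The P value does not show that the groups are alike.

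Nefl encodes the neurofilament light chain, the core subunit of the polymer. It was the most abundant neurofilament transcript, at 378.9, 381.1 and 410.7 CPM in sham and 258.5, 238.3 and 187.5 CPM in BCAS mice. The sham mice lay close together, and BCAS mouse 3 was the lowest of all. Group means were 390.3 ± 17.7 CPM for sham and 228.1 ± 36.6 CPM for BCAS (SD, n = 3 each), a change of -41.6%. The log2 fold change was -0.77 (SE 0.12, edgeR adjusted P = 0.00168), the strongest fall among the 8 genes.

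Nefm, which encodes the medium chain, one of the subunits with a long side arm, stood at 155.2, 164.1 and 139.3 CPM in sham and 105.1, 93.8 and 102.6 CPM in BCAS mice. Its log2 fold change was -0.60 (SE 0.08, edgeR adjusted P = 0.00103), with no overlap between the groups. Ina, which encodes alpha-internexin, a subunit that neurons express before the light, medium and heavy chains during development and that stays in adult neurofilaments, stood at 216.0, 210.1 and 225.9 CPM in sham and 141.0, 153.2 and 135.6 CPM in BCAS mice. Its log2 fold change was also -0.60 (SE 0.08, edgeR adjusted P = 5.88e-04), and its mice spread little within either group.

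Nefh encodes the heavy chain, whose tail is the most heavily phosphorylated. It stood at 67.0, 71.3 and 58.5 CPM in sham and 48.3, 46.9 and 56.2 CPM in BCAS mice. Sham mouse 3 and BCAS mouse 3 lay close to each other, though the groups did not overlap. The log2 fold change was -0.38 (SE 0.10, edgeR adjusted P = 0.0214). This call was lost when the counts were scaled by library totals alone (-0.30, edgeR adjusted P = 0.0711), and without sham mouse 1 (edgeR adjusted P = 0.0748), sham mouse 2 (0.0867) or BCAS mouse 1 (0.0602).

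**Figure D2:**
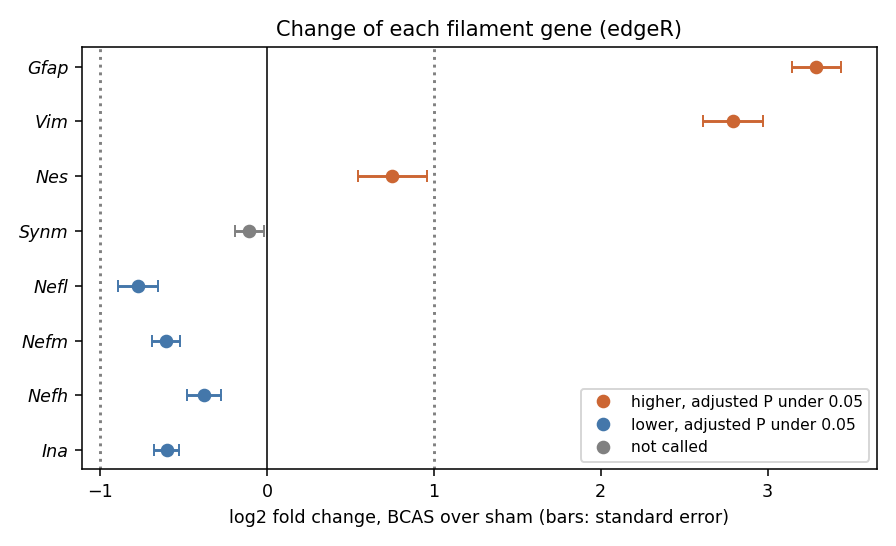
log2 fold change of each filament gene in BCAS over sham mice (points) with its standard error (bars) from edgeR; dotted lines mark the DEG threshold of 1 in either direction. Gfap at 3.29 and Vim at 2.79 lie beyond it, and the neurofilament genes lie between -0.77 and -0.38.

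Levels of different genes were compared per kilobase of exon. In sham mice the order was Nefl (115.5 ± 5.2 CPM per kb, SD, n = 3), Gfap (88.9 ± 10.7), Ina (67.1 ± 2.5), Nefm (26.4 ± 2.2), Nefh (16.4 ± 1.6), Vim (12.1 ± 1.7), Synm (6.37 ± 0.41) and Nes (1.42 ± 0.27). In BCAS mice the order was Gfap (871.0 ± 56.5 CPM per kb, SD, n = 3), Vim (84.0 ± 20.7), Nefl (67.5 ± 10.8), Ina (44.2 ± 2.8), Nefm (17.4 ± 1.0), Nefh (12.6 ± 1.3), Synm (5.92 ± 0.44) and Nes (2.39 ± 0.59). By group mean Gfap and Vim were thus the upper pair in BCAS mice, where Vim and Nefl overlapped with these lengths (70.6 to 107.8 against 55.5 to 76.5 CPM per kb). Vim was below Nefl in BCAS mouse 1 (73.5 against 76.5) and nearly equal to it in mouse 2 (70.6 against 70.5). In BCAS mouse 3 Vim was clearly higher (107.8 against 55.5). The other neighbours had ranges that did not touch, in sham as in BCAS mice.

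The exonic lengths in the count tables merge all annotated transcripts. For Nefl, Nefm, Ina and Synm they include shared bases whose reads were not assigned. A second set of lengths, chosen after seeing the data, took the principal transcript of each gene less the bases shared with other genes. It raised Nefl in sham mice to 171.8 and Nefm to 45.9 CPM per kb, and moved Vim (26.2) above Nefh (16.4). The order in BCAS mice was the same with both lengths, but with the second set Vim (152.7 to 233.2 CPM per kb) and Nefl (82.5 to 113.8) no longer overlapped. The ratio of Nefl to Nefm was 4.40 ± 0.57 in sham and 3.89 ± 0.67 in BCAS mice with the lengths of the tables (SD, n = 3), and 3.77 and 3.34 with the other lengths, and the groups overlapped either way.

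Summed per kilobase, the astrocyte filament genes gave 108.8 CPM per kb in sham and 963.3 in BCAS mice, and the neurofilament genes gave 225.4 and 141.7. The ratio of the astrocyte to the neurofilament sum was 0.55, 0.46 and 0.45 in sham mice and 6.73, 6.14 and 7.62 in BCAS mice. Neurofilament transcripts thus exceeded astrocyte filament transcripts in every sham mouse, and the reverse held in every BCAS mouse. With the other lengths the mean ratio was 0.565 in sham and 8.16 in BCAS mice. As a mean of log2 CPM over the genes of each group, the astrocyte minus neurofilament difference was -1.50, -1.68 and -1.65 in sham and 0.61, 0.49 and 0.88 in BCAS mice, a change of 2.27 on the log2 scale.

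**Figure D3:**
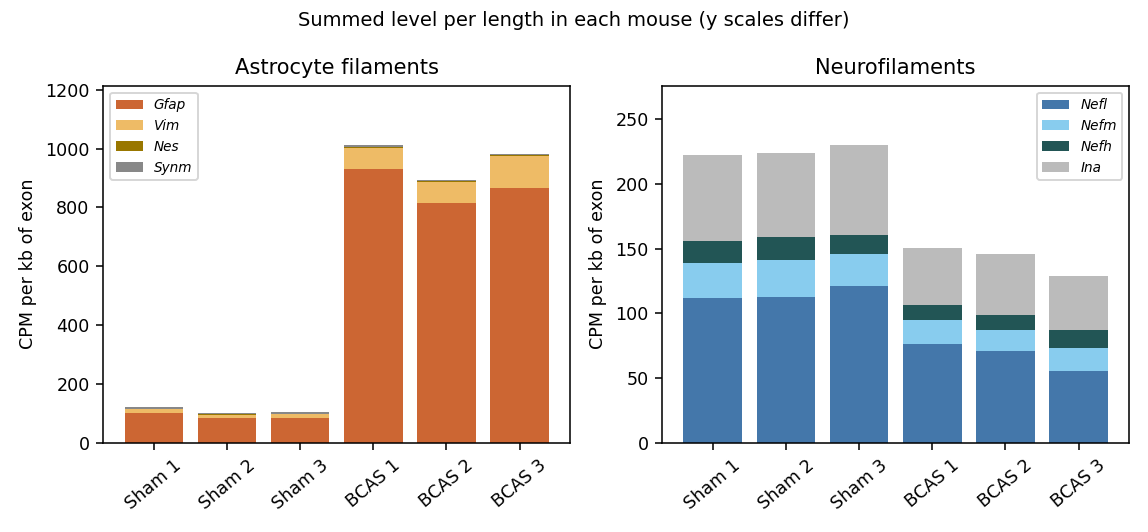
Stacked CPM per kb of exon in each mouse for the astrocyte filament genes (left) and the neurofilament genes (right), on y axes of different scale that start at 0. Gfap makes up most of the astrocyte sum in all mice, and the neurofilament bars keep similar proportions at a lower height in BCAS mice.

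Within the astrocyte group Gfap held a larger share in BCAS mice. It took 83.3%, 82.0% and 79.6% of the summed level per kilobase in sham mice 1 to 3 and 91.9%, 91.3% and 88.1% in BCAS mice, without overlap. The share of Synm was 5.87 ± 0.27% in sham and 0.61 ± 0.03% in BCAS mice, and that of Nes was 1.30 ± 0.22% and 0.25 ± 0.05% (SD, n = 3 per group), again without overlap. The share of Vim was 11.2 ± 2.0% and 8.71 ± 1.98%, and the groups overlapped.

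Within the neurofilament group the proportions were nearer to each other. Nefl took 51.2 ± 1.4% of the summed level in sham and 47.4 ± 4.1% in BCAS mice, Nefm 11.7 ± 1.1% and 12.3 ± 1.3%, and Ina 29.8 ± 0.7% and 31.3 ± 2.0% (SD, n = 3 per group), with overlap for each. The share of Nefh was 7.54%, 7.97% and 6.37% in sham and 8.04%, 8.05% and 10.9% in BCAS mice, which did not overlap, though BCAS mice 1 and 2 were barely above sham mouse 2.

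The filament genes were also set against other genes of their cell type. Of 12 astrocyte markers 10 were called higher, beside 18.0% of all tested genes, and their summed level was 4507 to 4702 CPM in sham and 6609 to 6666 CPM in BCAS mice. Of 12 neuron markers 10 were called lower, beside 13.2% of all tested genes, and their summed level was 13100 to 14040 CPM in sham and 6975 to 10170 CPM in BCAS mice. The mean log2 CPM of the astrocyte markers was 0.66 higher and that of the neuron markers 0.60 lower in BCAS mice. No marker in either list was at the detection limit in every mouse.

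Relative to the mean of the astrocyte markers, Gfap was 2.64 higher and Vim 2.12 higher on the log2 scale in BCAS mice, and no mouse of one group overlapped the other (exact two-sided permutation test, P = 0.1 each, the smallest that 3 against 3 mice can give). Nes differed by 0.08 (exact permutation P = 0.8), so that its relative level was within the spread between mice. Synm, level in absolute CPM, was 0.77 lower relative to the astrocyte markers, at -1.47, -1.59 and -1.65 in sham and -2.22, -2.37 and -2.42 in BCAS mice (exact permutation P = 0.1).

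Relative to the mean of the neuron markers, Nefm and Ina differed by 0.00 on the log2 scale (exact permutation P = 1.0 each) and Nefh by 0.23 (exact permutation P = 0.5), with overlapping groups. Nefl was 0.18 lower, at -1.09, -1.13 and -1.11 in sham and -1.15, -1.45 and -1.26 in BCAS mice, without overlap (exact permutation P = 0.1), and the difference was -0.10 without BCAS mouse 2. Adjusted over these 8 relations the smallest exact permutation P was 0.2, so none could pass the threshold. The signs for Nes, Nefm, Nefh and Ina turned when single mice were left out.

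**Figure D4:**
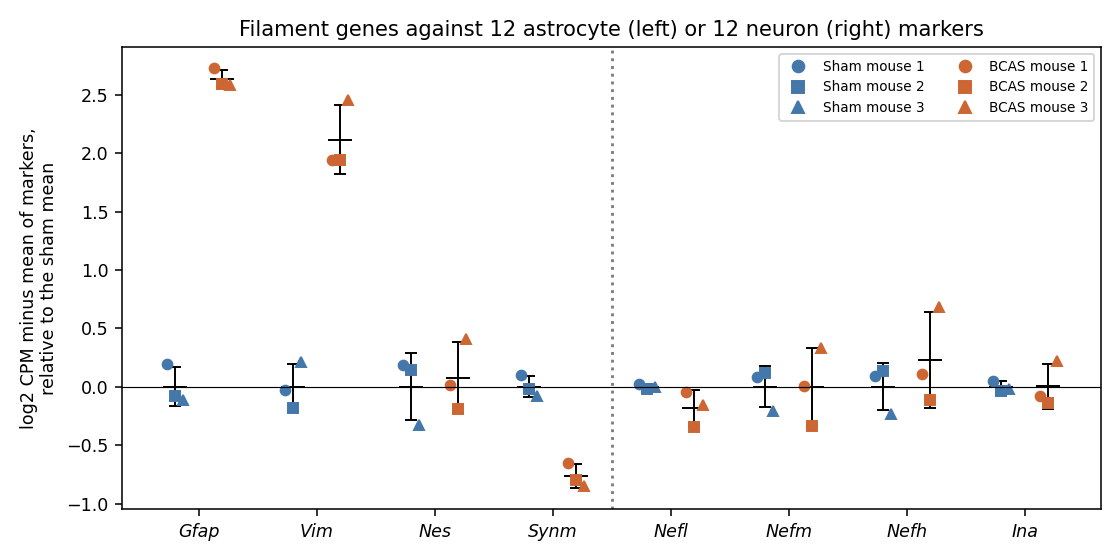
log2 CPM of each filament gene minus the mean log2 CPM of 12 astrocyte markers (left of the dotted line) or 12 neuron markers (right), with the sham mean set to 0; points are mice, horizontal bars are group means and error bars are SD (n = 3 mice per group). In BCAS mice Gfap and Vim lie above their sham levels relative to the astrocyte markers and Synm lies below, while the means of the neurofilament genes lie within 0.23 of 0.

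The genes whose pattern over the 6 mice was most like that of Gfap, by the root mean square difference of log2 CPM values centred on the sham mean among 10719 genes with a mean of at least 10 CPM, were Fcgr3 (0.21), Rasal3 (0.23) and C4b (0.23). Vim ranked 78 in this order. The patterns most like Vim were those of Tnfrsf1b (0.09), H2-Q4 (0.11) and Osmr (0.11), and the patterns most like Nefl were those of Psd (0.03), Slc1a1 (0.04) and Ust (0.04), with Ina at rank 397, Nefm at rank 667 and Nefh at rank 2372. Rasal3, Tnfrsf1b, H2-Q4 and Osmr were below 10 CPM in every sham mouse and met the minimum only through their BCAS values. The likeness is a description that rests mainly on the size of the group difference.

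Several regulators of the astrocyte filament genes rose with them. Of 20 tested genes in this list, 14 were called higher and none lower in edgeR, with 8 DEGs and a median log2 fold change of 0.61, beside 18.0% of all tested genes called higher and 8.47% that were DEGs higher. At an unadjusted P under 0.05 edgeR had 2 of them lower, and DESeq2 called 2 and limma-voom 1 lower. The list holds cytokines and receptors that signal through STAT3, a factor known to activate Gfap. Osmr, the oncostatin M receptor subunit, rose from 6.78, 5.29 and 7.52 CPM in sham to 41.4, 35.5 and 51.2 CPM in BCAS mice (log2 fold change 2.71, SE 0.18, edgeR adjusted P = 2.209e-05). Socs3, a feedback inhibitor induced by STAT3, rose by 2.83 (SE 0.29), Stat3 by 1.04 (SE 0.12), Il6st, the shared receptor subunit gp130, by 1.09 (SE 0.14) and Lif by 1.16 (SE 0.29), all on the log2 scale. Tgfb1 rose by 2.60 (SE 0.23), and its receptors Tgfbr2 and Tgfbr1 by 2.56 (SE 0.18) and 2.01 (SE 0.14). Other genes of the list, named after their values were seen, were not called. The receptor genes Lifr and Cntfr were at -0.08 (SE 0.09, edgeR adjusted P = 0.531) and 0.02 (SE 0.08, edgeR adjusted P = 0.880), and Nfib and Hes1 were at -0.32 (SE 0.11, edgeR adjusted P = 0.0519) and -0.28 (SE 0.10, edgeR adjusted P = 0.0600), where all BCAS mice lay below all sham mice. The list shares Sox9 with the astrocyte markers, and the count was 9 without sham mouse 2. The microglia values given above moved with these genes, and their part was not tested. Whether any of these regulators acted on Gfap or Vim in these mice was also not tested.

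Of 18 listed genes for other intermediate filament proteins 15 were tested, and 2 were called higher (Sync, log2 fold change 1.15, SE 0.37, and Iffo1, 0.22, SE 0.07) and none lower, with a median of 0.22, beside 18.0% of all tested genes called higher and 13.2% lower. At an unadjusted P under 0.05 edgeR had 3 higher and 1 lower, DESeq2 called 1 higher and limma-voom 2. Sync, which encodes syncoilin, was near 1 CPM or below in all mice, and the call count fell to 0 or 1 on leaving out any 1 mouse. Prph, the peripheral neurofilament protein, was at 0.01 (SE 0.36, edgeR adjusted P = 0.993), Des, the muscle filament protein, at 0.55 (SE 0.26, edgeR adjusted P = 0.136), and Lmna, a nuclear lamin, at 0.16 (SE 0.12, edgeR adjusted P = 0.373).

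Among 15 genes for linkers, chaperones and turnover of filaments, 5 were called higher and 2 lower, with a median log2 fold change of 0.25, beside 18.0% of all tested genes called higher and 13.2% lower. The count lower is thus near the share over all genes. The higher genes were Padi2, an enzyme that citrullinates GFAP and vimentin (1.18, SE 0.13), the co-chaperone Bag3 (0.76, SE 0.12), the calpain subunit Capn2 (0.53, SE 0.06), Cryab, the small heat shock protein that binds GFAP (0.38, SE 0.08), and the cytoskeletal crosslinker Macf1 (0.37, SE 0.10). Padi2 stood at 39.9, 38.8 and 29.0 CPM in sham and 83.4, 71.8 and 88.2 CPM in BCAS mice. The lower genes were the desmosomal linker Dsp (-1.31, SE 0.36) and Trim2, a ubiquitin ligase that binds the neurofilament light chain (-0.69, SE 0.11). Dsp stood at 31.9, 33.7 and 17.2 CPM in sham and 13.8, 5.33 and 14.2 CPM in BCAS mice. Sham mouse 3 thus lay near BCAS mice 1 and 3. Trim2 stood at 551.2, 488.3 and 502.1 CPM in sham and 354.5, 333.8 and 270.0 CPM in BCAS mice. Plec, the filament linker plectin, was at 0.15 (SE 0.09, edgeR adjusted P = 0.262) and Hspb1 at 0.41 (SE 0.15, edgeR adjusted P = 0.0595), and leaving out sham mouse 1 or 2 left 1 gene called lower.

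Genes of the axonal cytoskeleton and of axonal transport fell in part. Of 24 tested genes 10 were called lower and none higher in edgeR, with a median log2 fold change of -0.31, beside 13.2% of all tested genes called lower. At an unadjusted P under 0.05 edgeR had 14 lower and 0 higher, and DESeq2 called 15 and limma-voom 12 lower, with 0 higher in either. Among those lower were Stmn3 (-0.64, SE 0.14), Tubb2a (-0.63, SE 0.11), Tuba4a (-0.61, SE 0.13), Stmn2 (-0.60, SE 0.17) and Map1b (-0.50, SE 0.11), which encode tubulins and proteins that bind tubulin. Mapt, which encodes tau, was at -0.20 (SE 0.08, edgeR adjusted P = 0.103), Gap43 at -0.31 (SE 0.17, edgeR adjusted P = 0.204), Tubb3 at -0.39 (SE 0.15, edgeR adjusted P = 0.0847) and the motor gene Kif5a at -0.28 (SE 0.13, edgeR adjusted P = 0.140). The transport genes Kif5b (0.11, SE 0.08), Kif5c (-0.34, SE 0.12), Kif1a (-0.12, SE 0.10) and Dync1h1 (0.02, SE 0.08) were not called in edgeR either. Dctn1, also a transport gene, was called lower (-0.28, SE 0.09). Scaling by library totals left 5 called, and leaving out sham mouse 1, 2 or 3 or BCAS mouse 1 left 4, 4, 5 and 5. This list shares Stmn2, Tubb3 and Map2 with the neuron markers.

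Of 13 genes for kinases and phosphatases that act on neurofilament proteins, including the Cdk5 activators Cdk5r1 and Cdk5r2, 9 were called lower and 1 higher, with a median log2 fold change of -0.39, beside 13.2% of all tested genes called lower and 18.0% higher. Mapk10 had the lowest value (-0.65, SE 0.13), at 397.6, 410.8 and 415.5 CPM in sham and 249.7, 313.5 and 214.7 CPM in BCAS mice. Cdk5, a kinase of the neurofilament heavy and medium chains, was lower by a log2 fold change of -0.34 (SE 0.09, edgeR adjusted P = 0.0173). Rock1 was the gene called higher (0.57, SE 0.11). The count lower was 4, 5 and 4 without sham mouse 1, 2 and 3. Of 7 interneuron markers 6 were called lower, again beside 13.2% of all tested genes, while of 7 oligodendrocyte markers, from cells that wrap axons in myelin, 0 were called in edgeR, 1 was higher at an unadjusted P under 0.05, and DESeq2 called 1 and limma-voom 0.

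**Figure D5:**
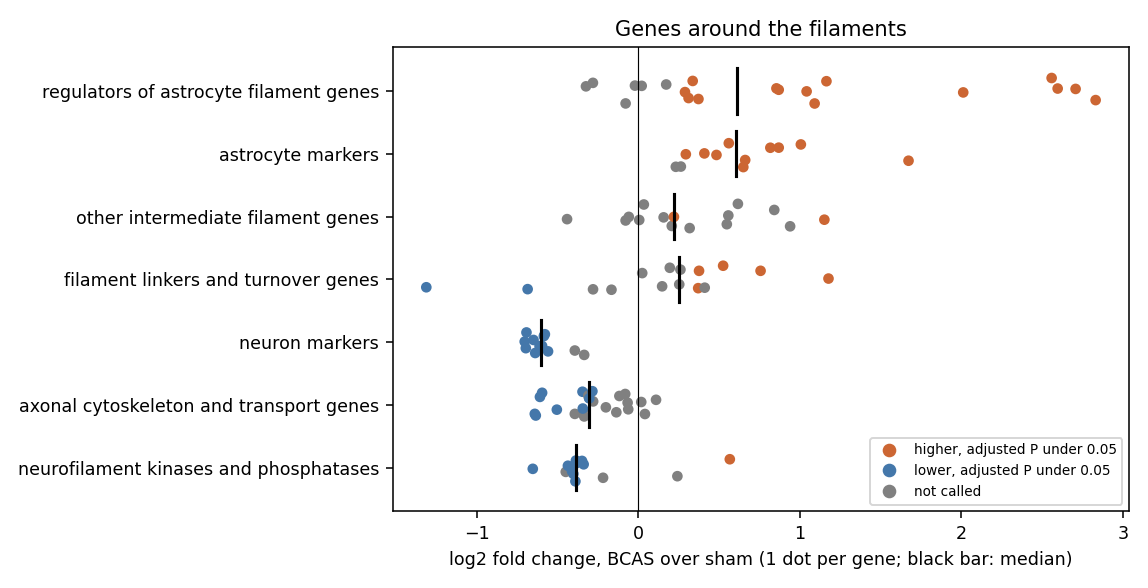
log2 fold change in BCAS over sham mice for the tested genes of 7 lists (1 dot per gene, colours give the edgeR call, black bars are medians). The regulators of astrocyte filament genes reach 2.83, and the neuron markers, axonal genes and neurofilament kinases and phosphatases lie mostly below 0.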

How the data were processed

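RNA-seq libraries of the right hippocampus (3 BCAS, 3 sham) were grouped by their labels. The authors trimmed reads with Trim Galore, aligned them to mm10 with HISAT2 and deposited raw counts per gene, made with featureCounts from exons. The file headers name featureCounts 2.0.3 and the GENCODE M20 annotation (the submitters' processing notes name 1.6.3) and show that mates were counted separately, strand was ignored, and reads in several places or genes were dropped. Inside the BCAS tables the columns carry other mouse numbers, and the labels' numbers are used here.

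The members and lists were chosen with earlier results of these data known. Of 54752 genes, 54723 matched a symbol. Genes kept by filterByExpr were TMM-scaled and tested with edgeR 4.0.16 (quasi-likelihood, Benjamini-Hochberg over 18617 genes) in R 4.3.3, and log2 CPM used a prior count of 2. Alternatives were DESeq2 1.42.0, limma-voom (limma 3.58.1), RLE factors, library totals, other filters, halved counts, glmTreat, a replicate block and leaving out each mouse. Scripts were tested on simulated data. All 8 members were named. From the lists a selection was named, mainly called genes with large changes, genes tied to a member and some genes that were not called. For pairs of mice within a group, counts differed beyond counting noise.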

Additional observations from a re-analysis of the deposited data

How the results depend on the processing

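Gfap (log2 fold change 3.23 to 3.39) and Vim (2.57 to 2.90) kept their direction and call under all 15 alternatives, and the astrocyte minus neurofilament difference stayed between 2.16 and 2.35 when each mouse was left out. Nefl, Nefm and Ina lost their call only under glmTreat, which tests against a log2 fold change of 1 and left 0 of the 8 genes lower, while Nes and Nefh also lost it elsewhere. Nothing in the labels pairs the mice that share a number, and the paper states that the samples of each group were picked at random. Deviations from the group means correlated at 0.036, -0.314 and -0.158 for mice sharing a number. Not every mouse correlated best with its own number. With deviations from means of 3 mice these correlations cannot settle whether mice were paired. With the numbers in the labels as a replicate block, 2782 genes were called higher and 1750 lower. Nes (edgeR adjusted P = 0.0656) and Nefh (0.0622) then lost their call. The list counts were 6 axonal genes lower, 1 linker or turnover gene lower and 0 other filament genes higher.

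Leaving out each mouse gave 1260 to 3092 genes lower and 96 to 238 DEGs lower over all genes (2463 and 186 with all mice). For the lists it gave 4 to 14 axonal genes lower, 4 to 11 kinases and phosphatases lower, 9 to 14 regulators higher with 0 to 1 lower, 1 to 3 linker or turnover genes lower, and 0 to 1 other filament genes higher and 0 to 1 lower. Relative to the markers it gave -0.087 to 0.211 for Nes, -0.249 to -0.100 for Nefl, -0.163 to 0.170 for Nefm, -0.002 to 0.397 for Nefh and -0.107 to 0.073 for Ina on the log2 scale. DESeq2 called 1 other filament gene higher and 2 regulators lower, limma-voom and RLE factors each called 1 regulator lower, and keeping genes with at least 1 count gave 1 other filament gene higher and 1 regulator lower. Library totals left 5 axonal genes lower and 2 kinases higher, with a median over all genes of 0.095. The cause of these differences was not tested. With 3 mice per group no exact permutation P can pass 0.05.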
